A study of Mus musculus with 12 samples.

Results

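Prostate tumours treated with Lupron together with an antibody against CSF1 were compared with tumours given control IgG, 3 tumours against 3, out of 12 bulk RNA-seq libraries in the series. The 6 libraries were chosen by their labels alone. All 12 C57BL/6J mice received 100000 PTE-82 cells, a single prostate cancer line labelled TMPRSS2-ERG+, injected into the prostate in 40 µl of PBS and Matrigel. Mice of the combination group had 0.6 mg of Lupron each on day 4 and anti-CSF1 on days 9 and 14, the IgG group stands as the control, and all tumours were resected on day 17 after perfusion. The other 6 tumours had anti-CSF1 alone or Lupron alone at the same days. No source used here states the antibody dose, the days of control IgG, or whether mice given Lupron alone also received it. Each tumour holds implanted cells and tissue of the host. A p-value sets the difference between groups against the spread between tumours within the groups fitted.

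CSF1 is the main growth and survival factor of macrophages and acts through the receptor kinase CSF1R, which is found mostly on cells of that lineage. Lupron (leuprolide) is an agonist of the gonadotropin-releasing hormone receptor that, given continuously, shuts down pituitary drive to the testis and lowers testosterone. Normal prostate epithelium depends on androgen for its secretory genes. Macrophages take up lipid and hand cholesterol back through the carrier APOE and the pump ABCA1, and cholesterol is the precursor of steroid hormones, which is the link the series title draws between macrophages and resistance to therapy.

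The libraries held between 20584363 and 29965355 counts, and RNA integrity numbers lay between 8.2 and 9.8. IgG replicate 3 stood apart from the other 11. Its mean level of luminal epithelial genes was 7.44 on the scale of log2(CPM + 1), where CPM is the gene's count relative to its library's total after TMM scaling. The other IgG tumours were at 4.85 and 6.03 and the combination tumours between 3.99 and 4.66. Its smooth muscle level was 9.11, against 5.04 and 7.16 in the other IgG tumours and 4.66 to 5.54 in the combination. Its proliferation genes were at 2.62, against 5.8 to 6.67 in the other 11 libraries. IgG replicate 2 was the next highest of the 6 compared libraries for luminal and smooth muscle genes. Results are given with all 12 libraries or without IgG replicate 3, in a fit of 11 libraries that leaves 2 IgG tumours. List counts name the fit they come from, and fold changes (log2, ± SE) and adjusted p-values of single genes come from that fit of 11 unless 12 libraries are named.

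**Figure D1:**
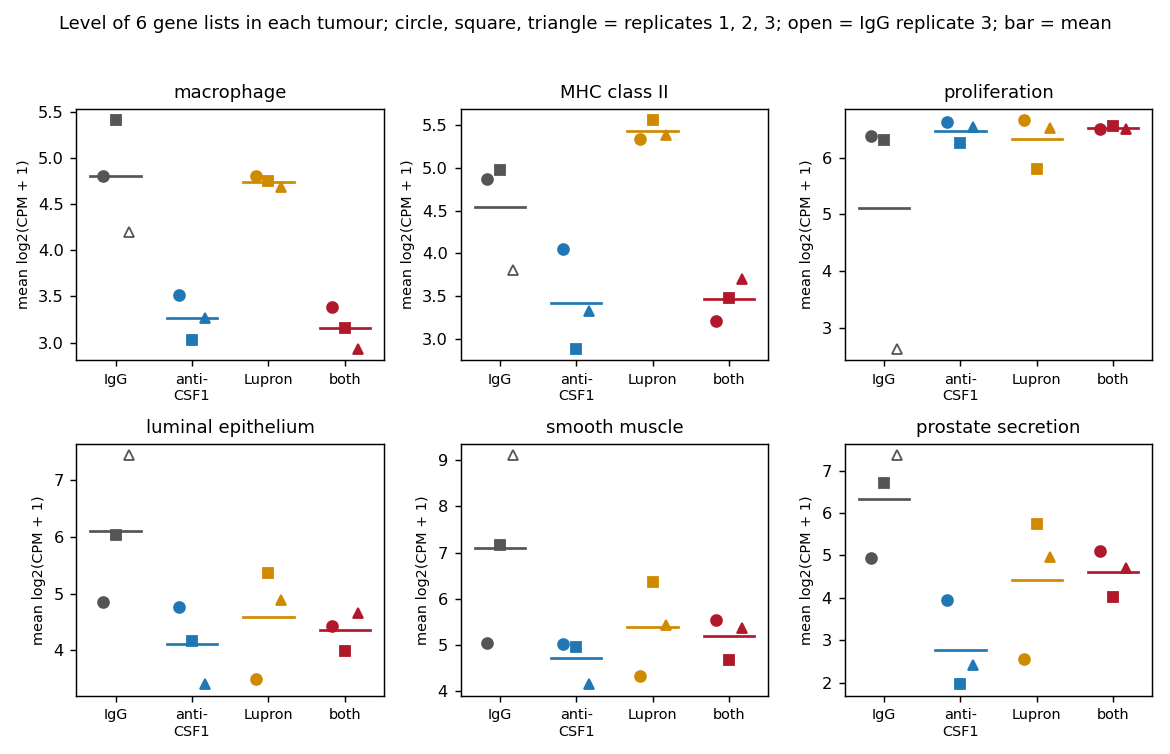
Mean log2(CPM + 1) of 6 gene lists in each of the 12 tumours, by group ("both" is Lupron with anti-CSF1), with a bar at the group mean and an open triangle for IgG replicate 3. The combination tumours sit at 2.93 to 3.38 for macrophage genes, below all 3 IgG tumours, while IgG replicate 3 lies alone at 2.62 for proliferation genes.

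With all 12 libraries 1 of 15082 genes tested passed an adjusted p of 0.05 (0.00663%), the ficolin gene Fcna, which was lower in the combination. At an unadjusted p under 0.05 there were 3922 genes (26%), 1439 higher (9.54%) and 2483 lower (16.5%), and DESeq2 called 2094 genes (13.9%), 534 higher (3.54%) and 1560 lower (10.3%). Without IgG replicate 3, 208 of 15196 genes passed (1.37%). Of these 14 were higher (0.0921%) and 194 lower (1.28%). With 12 libraries lower genes also outnumbered higher ones at an unadjusted p under 0.05 and by DESeq2. The count of genes whose 3 and 3 tumours, IgG replicate 3 included, did not overlap leaned the other way. Of these 2272 (15.1%) were higher and 1915 (12.7%) lower. Without IgG replicate 3 DESeq2 called 773 genes (5.09%), 233 higher (1.53%) and 540 lower (3.55%), all of the 208 among them. The median log2 fold change over all genes was -0.03 with 12 libraries and -0.01 with 11. The counts of list members below are to be read against these shares of all genes.

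The number of genes passing depended on which libraries were kept. From 12 libraries, leaving out IgG replicate 1 gave 2213 genes and leaving out IgG replicate 3 gave 208. Leaving out any other library gave 0. From the 11 libraries without IgG replicate 3, where 208 passed, leaving out combination replicate 1, 2 or 3 gave 143, 56 or 41. In the fit of 11 libraries, leaving out 1 more gave between 26 (without IgG replicate 2) and 616 (without IgG replicate 1). A set of 23 genes passed in each of the 11 further fits and all 23 were lower in the combination; they fall partly outside the naming rule and were listed after their values were seen. Among them were Abcg3, Adap2, Aif1, Apoe, C1qa, C1qb, Ccl12, Cd72, Cfp, Cxcl16, Fcgr1, Fcna, Fyb, Gatm, H2-DMb1, Igsf6, Itgam, Ly86, Msr1, Pld4, Sfpi1 and Tifab. Many of them are known from macrophages, such as Sfpi1 (the older symbol of Spi1), which encodes the myeloid transcription factor PU.1. All 11 of these fits leave out IgG replicate 3, and some leave out a tumour of neither compared group. With 12 libraries only Fcna passed. For some of the set, such as Fcgr1, Msr1, Ccl12 and Cxcl16, the groups overlapped once IgG replicate 3 was included.

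**Figure D2:**
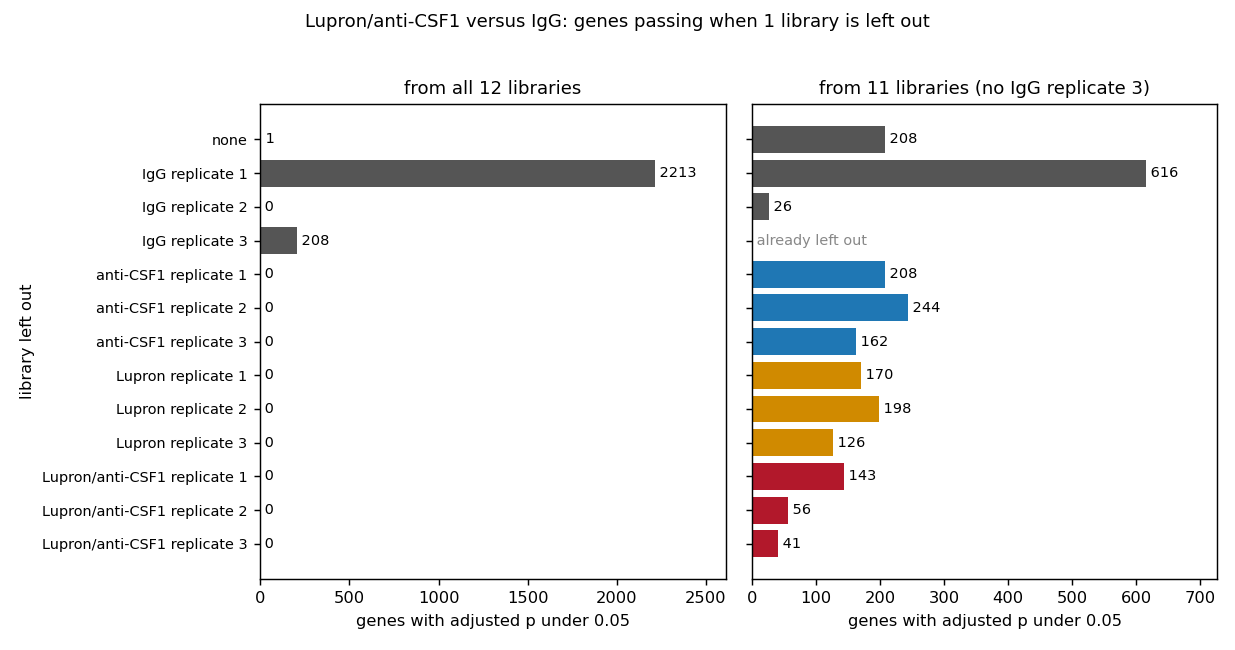
Genes with an adjusted p under 0.05 for Lupron/anti-CSF1 versus IgG when the library named on the vertical axis was left out, starting from 12 libraries (left) or from 11 without IgG replicate 3 (right). From 12 libraries the count was 0 except without IgG replicate 1 (2213) and without IgG replicate 3 (208).

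The antibody's target gene Csf1 was at 72.8, 109 and 33.6 CPM in the IgG tumours (replicates 1, 2 and 3) and at 59.2, 33.5 and 81.9 CPM in the combination tumours. The groups overlapped, and the log2 fold change of -0.64 ± 0.42 without IgG replicate 3 did not pass (adjusted p = 0.493; with 12 libraries -0.30 ± 0.47, adjusted p = 0.693). An antibody against the protein need not alter its transcript, so this gene does not check the labels. Its receptor Csf1r was at 113, 148 and 51.9 CPM with IgG and at 24.0, 15.1 and 19.8 CPM with the combination. Every combination tumour was below every IgG tumour. Csf1r fell by 2.73 ± 0.37 on the log2 scale without IgG replicate 3 (adjusted p = 0.0048), and the value with 12 libraries was -2.41 ± 0.44 (adjusted p = 0.0899). Erg, the fusion partner that the cell line's label names, was at 16.4, 11.7 and 8.01 CPM with IgG and at 19.4, 13.6 and 16.9 CPM with the combination, and did not pass in either fit (adjusted p = 0.318 and 0.699). Its transcripts were present in all 6 tumours, and no source used here states whether fusion reads were counted under this symbol.

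**Figure D3:**
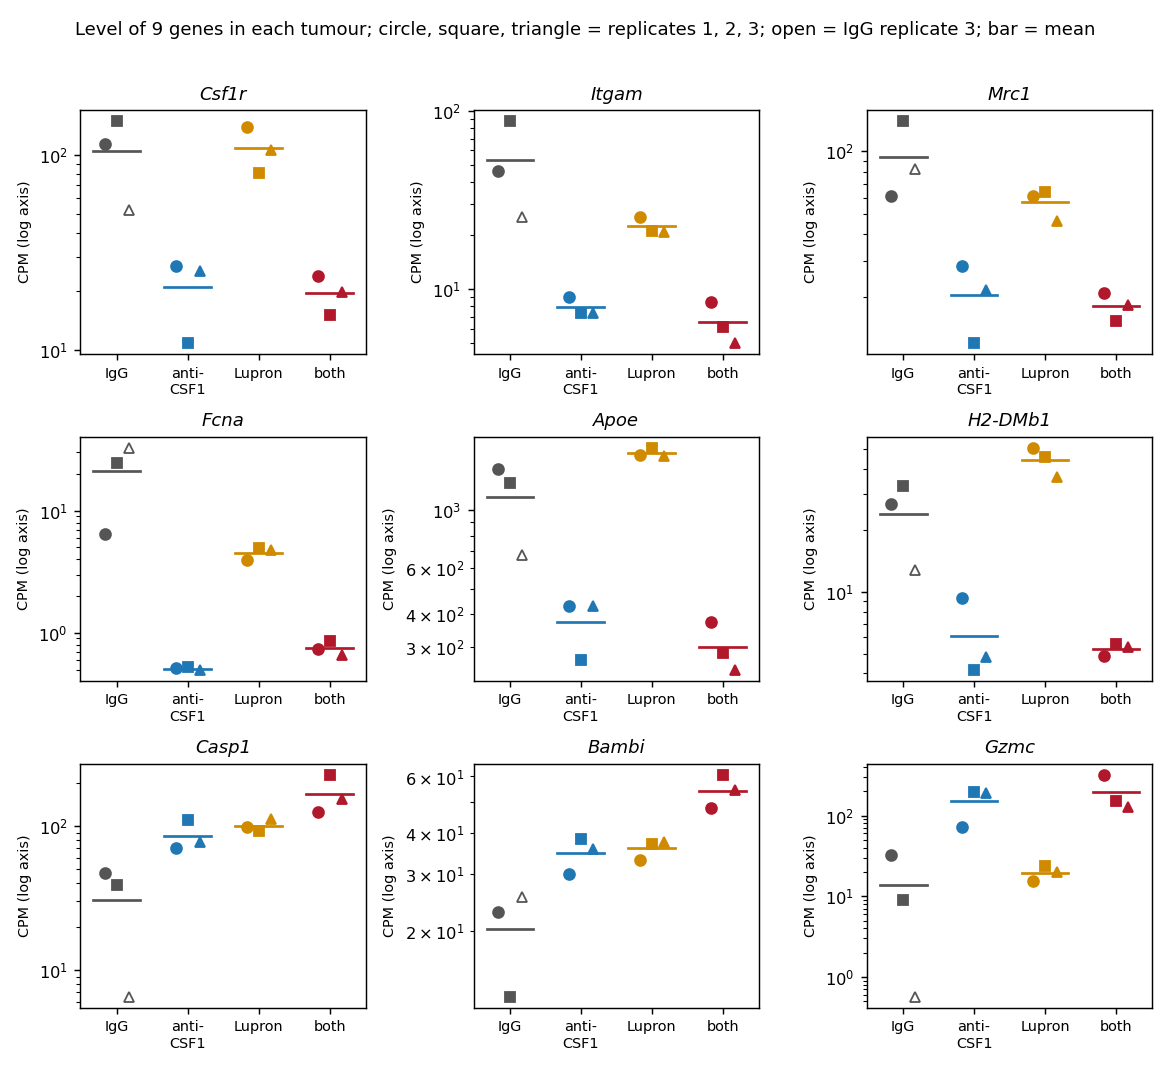
CPM on a log axis of 9 genes in each of the 12 tumours ("both" is Lupron with anti-CSF1; bar, group mean; open triangle, IgG replicate 3). The combination tumours lie below the IgG tumours for Csf1r, Itgam, Mrc1, Fcna, Apoe and H2-DMb1 and above them for Casp1, Bambi and Gzmc.

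Macrophage genes were lower as a group. Of 30 macrophage markers tested, 18 passed without IgG replicate 3, all lower, and the median log2 fold change was -2.57, where 1.28% of all genes were lower and the median of all genes was -0.01. With 12 libraries 1 passed and the median was -2.24, and 29 of 30 values were negative. In 19 of the 30 the 3 combination tumours lay below the 3 IgG tumours, against 12.7% of all genes tested (27.8% in either direction). In bulk tissue, fewer macrophages and less RNA of these genes per macrophage cannot be told apart.

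Fcna encodes ficolin A, a lectin of the complement system made by macrophages. It was at 6.43, 24.4 and 32.4 CPM with IgG and at 0.743, 0.853 and 0.654 CPM with the combination. The fall of 4.81 ± 0.54 on the log2 scale passed with 12 libraries (adjusted p = 0.0334), as did that of 4.36 ± 0.51 without IgG replicate 3 (adjusted p = 0.00334). Of the compared IgG tumours, replicate 1 was the lowest and still more than the highest combination tumour. Itgam encodes the CD11b integrin chain of myeloid cells. Its CPM values were 46.2, 87.3 and 25.5 with IgG and 8.41, 6.13 and 4.99 with the combination, a fall of 3.36 ± 0.30 without IgG replicate 3 (adjusted p = 0.00138; with 12 libraries -3.02 ± 0.40, adjusted p = 0.0529).

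Mrc1, the mannose receptor CD206, was at 61.4, 139 and 82.0 CPM with IgG and at 21.0, 15.4 and 18.4 CPM with the combination, and fell by 2.45 ± 0.37 without IgG replicate 3 (adjusted p = 0.00883). Emr1, the older symbol of the gene for F4/80, was at 48.5, 105 and 21.6 CPM against 8.92, 4.43 and 6.20 CPM and fell by 3.55 ± 0.48 (adjusted p = 0.0048). Siglec1, a sialic acid receptor of resident macrophages, was at 15.6, 44.5 and 11.7 CPM against 4.58, 1.33 and 1.41 CPM and fell by 3.61 ± 0.59 (adjusted p = 0.0116). For these 3 genes the groups did not overlap, and none passed with all 12 libraries (adjusted p from 0.0899 to 0.0992). The macrophage list's level was 4.80, 5.41 and 4.20 with IgG and 3.38, 3.16 and 2.93 with the combination. IgG replicate 3, the tumour with the most normal prostate genes, had the lowest macrophage level of the IgG group.

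The promoters of genes that fell were searched for the letters GAGGAAGT, a core bound by PU.1, on both strands, in RefSeq windows of build GRCm38.p6 (mm10) that run from 250 bases before to 50 after each start. Of the 194 genes lower without IgG replicate 3, 149 had a window and 22 of these (14.8%) held the letters, against 456 of 11915 tested genes with a window (3.83%) and 3.20% of all 32851 windows. The 13 higher genes with a window held 0. A match is a description of the sequence and no evidence of binding. Shown are the 250 bases before the start for the 3 lower genes with the smallest p whose match lies in that stretch, with the matched letters in capitals; they were chosen after the values were seen. Cd72 lies on the minus strand at chr4:43454627-43454876, Hpgds on the minus strand at chr6:65144731-65144980 and Cd300ld on the minus strand at chr11:114989887-114990136, each printed 5′ to 3′ on the strand of the gene.
Cd72: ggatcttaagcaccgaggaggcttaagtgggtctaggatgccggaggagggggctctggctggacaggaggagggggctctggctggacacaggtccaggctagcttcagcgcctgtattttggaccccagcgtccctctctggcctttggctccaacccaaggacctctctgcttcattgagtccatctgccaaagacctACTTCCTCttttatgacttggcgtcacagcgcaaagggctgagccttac
Hpgds: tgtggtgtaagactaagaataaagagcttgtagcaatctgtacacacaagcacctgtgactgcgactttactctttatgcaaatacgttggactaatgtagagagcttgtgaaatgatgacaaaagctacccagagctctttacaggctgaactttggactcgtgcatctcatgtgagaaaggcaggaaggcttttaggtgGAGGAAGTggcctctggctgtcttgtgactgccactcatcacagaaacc
Cd300ld: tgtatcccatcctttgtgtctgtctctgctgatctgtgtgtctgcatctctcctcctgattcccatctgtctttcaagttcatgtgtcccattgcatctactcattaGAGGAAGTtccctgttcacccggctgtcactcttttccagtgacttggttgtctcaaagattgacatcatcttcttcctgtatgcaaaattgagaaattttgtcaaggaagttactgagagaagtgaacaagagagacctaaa

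In Cd72 the match is on the strand opposite to the gene and starts 49 bases before the start site, in Hpgds it is on the gene's strand and also starts 49 bases before it, and in Cd300ld it is on the gene's strand and starts 143 bases before it. Cd72, a receptor of B cells and some macrophages, was at 34.8, 63.9 and 2.63 CPM with IgG and at 4.34, 2.77 and 4.06 CPM with the combination. IgG replicate 3 was at the level of the combination tumours, and the fall of 3.72 ± 0.34 rests on IgG replicates 1 and 2 (adjusted p = 0.00138; with 12 libraries 0.115). Hpgds, a prostaglandin D synthase, was at 9.17, 13.4 and 3.88 CPM against 2.50, 2.13 and 1.76 CPM and fell by 2.40 ± 0.30 (adjusted p = 0.00404). Cd300ld, a myeloid receptor, was at 21.5, 53.3 and 10.3 CPM against 6.69, 6.88 and 5.47 CPM and fell by 2.56 ± 0.36 (adjusted p = 0.00653).

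Complement genes fell in part. Without IgG replicate 3, 6 of 19 tested passed, all lower, with a median of -1.26. With 12 libraries 0 passed and the median was -2.22; 1 was higher and 15 lower at an unadjusted p under 0.05, where 9.54% and 16.5% of all genes were, and DESeq2 called 13, all lower (10.3% of all genes). The members that passed are made or carried by myeloid cells. C1qb, a chain of the C1q recognition complex, was at 200, 266 and 66.8 CPM with IgG and at 46.3, 35.2 and 30.1 CPM with the combination, and fell by 2.65 ± 0.30 (adjusted p = 0.00334). C1qa (-2.59 ± 0.29) and C1qc (-2.93 ± 0.43), which encode the other C1q chains, fell likewise. Cfp, properdin, which stabilises the alternative pathway convertase, was at 27.3, 53.7 and 17.7 CPM against 9.15, 8.75 and 8.37 CPM and fell by 2.21 ± 0.26 (adjusted p = 0.00355). The C5a receptor gene C5ar1 fell by 3.21 ± 0.59 (adjusted p = 0.0228).

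Genes of MHC class II, which present antigen to CD4 T cells, fell as well. Of 11 tested, 7 passed without IgG replicate 3, all lower, with a median of -1.88 (1.28% of all genes were). With 12 libraries 0 passed and the median was -1.62. At an unadjusted p under 0.05, 7 were lower (16.5% of all genes were), and DESeq2 called 7, all lower (10.3% of all genes were). H2-DMb1, a chain of the peptide exchange factor H2-DM, was at 26.9, 32.8 and 12.8 CPM with IgG and at 4.85, 5.55 and 5.41 CPM with the combination, a fall of 2.50 ± 0.31 (adjusted p = 0.00404). Cd74, the invariant chain, was at 1170, 1040 and 467 CPM against 176, 186 and 308 CPM and fell by 2.31 ± 0.48 (adjusted p = 0.0398). Ciita, the transactivator of the class II genes, was at 19.1, 21.7 and 8.62 CPM against 6.22, 4.80 and 6.92 CPM and fell by 1.77 ± 0.31 (adjusted p = 0.0170). The groups did not overlap for these 3 genes. By contrast 0 of 13 genes of class I presentation passed in either edgeR fit, with medians of 0.29 with 12 libraries and 0.03 with 11; 2 had an unadjusted p under 0.05 with 12 libraries, both higher, and DESeq2 called 0 without IgG replicate 3.

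Lysosomal genes did not move as a block. Of 16 tested, 2 passed without IgG replicate 3, both lower, and the median was -0.23. The 12 libraries gave 0 passing, with 2 higher and 5 lower at an unadjusted p under 0.05 (9.54% and 16.5% of all genes were). DESeq2 called 5, all lower (10.3% of all genes were). The median was -0.13 and turned positive (at most 0.07) without IgG replicate 1 or 2. The elastolytic protease gene Ctss was at 439, 581 and 70.8 CPM with IgG and at 137, 115 and 114 CPM with the combination. IgG replicate 3 was lower than every combination tumour, so the fall of 2.07 ± 0.32 (adjusted p = 0.00914) is against IgG replicates 1 and 2; with 12 libraries it was -1.58 ± 0.58 (adjusted p = 0.139). Lgmn, legumain, was at 267, 372 and 108 CPM against 137, 117 and 102 CPM and fell by 1.43 ± 0.23 (adjusted p = 0.00989), with IgG replicate 3 within the range of the combination tumours. Ctsd was at -0.46 ± 0.22 and did not pass (adjusted p = 0.348).

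Among 20 myeloid chemokines 2 passed without IgG replicate 3, both lower, and 18 of 20 values were negative (median -0.99). In the fit of 12 libraries 0 passed and the median was -1.02. At an unadjusted p under 0.05, 6 were lower (16.5% of all genes were), and DESeq2 called 4, all lower (10.3% of all genes were). Ccl12, a monocyte attractant, was at 16.9, 35.9 and 2.74 CPM with IgG and at 3.21, 2.13 and 1.07 CPM with the combination, and fell by 3.63 ± 0.46 (adjusted p = 0.00404). Cxcl16, a chemokine that also acts as a scavenger receptor, was at 73.1, 67.3 and 16.2 CPM against 24.4, 25.3 and 22.2 CPM and fell by 1.55 ± 0.20 (adjusted p = 0.00439). In both genes IgG replicate 3 was within or below the combination tumours. Ccl8 was at 10.3, 48.9 and 46.2 CPM against 4.89, 4.16 and 2.41 CPM and just missed the threshold (-2.96 ± 0.64, adjusted p = 0.0504).

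Of 8 colony-stimulating factors and receptors, 2 passed without IgG replicate 3, Csf1r and Csf2ra, both lower (median -1.01). The same number, 2, were lower at an unadjusted p under 0.05 and by DESeq2 with 12 libraries, where 0 passed and the median was -0.64. Csf2ra, the alpha chain of the GM-CSF receptor, was at 50.1, 64.3 and 42.4 CPM with IgG and at 19.2, 21.3 and 20.5 CPM with the combination. The groups were well apart and the fall was 1.49 ± 0.19 (adjusted p = 0.00439; with 12 libraries -1.36 ± 0.20, adjusted p = 0.0899). Its partner Csf2rb was at 33.0, 33.2 and 11.0 CPM against 13.7, 14.1 and 17.9 CPM and did not pass (-1.12 ± 0.27, adjusted p = 0.0718). The ligand genes Csf2 and Csf3 stayed below 2 CPM in all 6 tumours.

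Other myeloid lists had few passing members. Of 12 monocyte genes 1 passed without IgG replicate 3 (median -0.95). With 12 libraries 0 passed and the median was -0.96. At an unadjusted p under 0.05, 3 were lower (16.5% of all genes were), and DESeq2 called 2, both lower (10.3% of all genes were). The gene that passed was F13a1, the coagulation factor XIII A chain of monocytes and macrophages. It was at 14.9, 52.2 and 68.1 CPM with IgG and at 5.75, 3.09 and 3.61 CPM with the combination, and fell by 3.01 ± 0.48 (adjusted p = 0.00986). The monocyte gene Ly6c2 was at 9.44, 123 and 10.9 CPM against 19.8, 8.75 and 11.2 CPM, so that IgG replicate 2 alone was high and the groups overlapped. Neutrophil genes gave 0 of 11 passing without IgG replicate 3 (1 called by DESeq2, higher). At an unadjusted p under 0.05 with 12 libraries 1 of 10 was higher, near the 9.54% of all genes. The neutrophil median was -0.1 with 12 libraries and -0.4 with 11, where 5 values were positive and 6 negative. The protease gene Mmp9, also on the matrix remodelling list, was the 1 member whose groups were apart. It was at 294, 127 and 13.5 CPM with IgG and at 655, 961 and 515 CPM with the combination (adjusted p = 0.168). Of 16 dendritic cell genes 2 fell without IgG replicate 3, Irf8 by 0.84 ± 0.18 (adjusted p = 0.0471) and Itgax, the CD11c chain that macrophages also carry, by 1.74 ± 0.38 (adjusted p = 0.0496). The dendritic median was -0.58, and with 12 libraries it was -0.23, with 0 passing and 1 lower both at an unadjusted p under 0.05 and by DESeq2; it was 0.06 without IgG replicates 2 and 3.

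In the cholesterol efflux and uptake list 3 of 20 passed without IgG replicate 3, all lower: Apoe, Abca1 and Msr1 (median -0.71). Among the same 20 with 12 libraries 0 passed, 3 were higher and 9 lower at an unadjusted p under 0.05, DESeq2 called 2 higher and 7 lower, and the median was -0.78. Apoe, which encodes the apolipoprotein that accepts cholesterol from cells, was among the most abundant of the genes described, at 1430, 1270 and 674 CPM with IgG and at 374, 285 and 246 CPM with the combination. It fell by 2.16 ± 0.28 (adjusted p = 0.00439; with 12 libraries -1.90 ± 0.32, adjusted p = 0.0899), with no overlap between groups. Abca1, the pump that loads cholesterol on apolipoproteins, was at 80.8, 107 and 181 CPM against 44.9, 29.8 and 34.6 CPM and fell by 1.37 ± 0.21 (adjusted p = 0.00893). Here IgG replicate 3 was the highest of the 6 tumours, where for Apoe it was the lowest of the IgG group. Abcg1, a related pump, was at 14.4, 18.1 and 18.9 CPM against 11.8, 4.32 and 7.13 CPM, with groups apart but an adjusted p of 0.220. Npc2, a lysosomal cholesterol carrier, was at 284, 298 and 185 CPM against 371, 506 and 426 CPM (0.58 ± 0.22, adjusted p = 0.257).

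Cholesterol synthesis genes had 0 of 23 passing in either edgeR fit, while 20 of 23 values were positive without IgG replicate 3 and the median was 0.53 (0.50 with 12 libraries). At an unadjusted p under 0.05 there were 8 higher and 1 lower with 12 libraries, and DESeq2 called 2 without IgG replicate 3, both higher. In 12 of the 23 genes all combination tumours lay above all IgG tumours, against 15.1% of all genes tested. Idi1, an isomerase of the mevalonate pathway, was at 20.1, 17.2 and 12.7 CPM with IgG and at 31.1, 46.8 and 27.9 CPM with the combination (0.91 ± 0.23, adjusted p = 0.0909). Sc4mol, the older symbol of the methyl sterol oxidase gene Msmo1, was at 76.7, 44.9 and 59.8 CPM against 105, 190 and 115 CPM (1.17 ± 0.31, adjusted p = 0.103). In both genes the combination replicates lay above the IgG replicates, but neither passed the test.

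Lymphocyte lists gave 2 passing genes without IgG replicate 3. Of 19 T cell genes, Cd4 alone passed (median -0.58). The T cell median with 12 libraries was -0.23, with 0 passing and 1 lower both at an unadjusted p under 0.05 and by DESeq2, and it turned positive (at most 0.34) without IgG replicate 1, IgG replicate 2 or combination replicate 1. The co-receptor gene Cd4, which some mouse macrophages and dendritic cells may also express, was at 8.18, 11.1 and 3.67 CPM with IgG and at 2.39, 1.81 and 2.34 CPM with the combination, and fell by 2.14 ± 0.30 (adjusted p = 0.00624). Cd3e, part of the T cell receptor complex, was at 11.2, 13.8 and 4.27 CPM against 2.74, 7.84 and 9.09 CPM, with overlap (adjusted p = 0.365). Of 11 B and plasma cell genes, Cd22, an inhibitory receptor, passed: 5.63, 4.09 and 2.35 CPM against 0.509, 0.853 and 0.757 CPM, a fall of 2.78 ± 0.49 (adjusted p = 0.0180). The B cell median was -0.36, and -0.48 over the 10 genes tested with 12 libraries, where 0 passed and 1 was lower both at an unadjusted p under 0.05 and by DESeq2; it was 0.29 without IgG replicates 2 and 3.

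Granzymes, the serine proteases of cytotoxic granules, had mostly positive values. Of 9 tested, 7 were positive without IgG replicate 3 and the median was 3.27 (3.84 with 12 libraries), but only Gzmc passed. Without IgG replicate 3 DESeq2 called 5 of 9, all higher (1.53% of all genes were). With 12 libraries it called 6, all higher (3.54% of all genes were). In that fit 0 passed by edgeR and 6 were higher at an unadjusted p under 0.05 (9.54% of all genes were). In 6 all combination tumours lay above all IgG tumours, against 15.1% of all genes tested. Gzmc was at 32.0, 8.89 and 0.57 CPM with IgG and at 315, 150 and 127 CPM with the combination, and rose by 3.27 ± 0.66 (adjusted p = 0.0393; with 12 libraries 3.84 ± 1.01, adjusted p = 0.115). Gzmd was at 2.47, 0.71 and 0 CPM against 193, 49.3 and 17.6 CPM. Gzmg was at 0.533, 0.125 and 0.0712 CPM against 107, 16.7 and 3.72 CPM. For both, the groups did not overlap, the combination tumours differed widely among themselves, and the test did not pass (adjusted p = 0.161 and 0.220). Gzmd, Gzme, Gzmf and Gzmg are near-identical neighbours whose reads the counting could have split, so their separate values are uncertain. Gzmb, the best known granzyme of NK and CD8 T cells, was at 16.3, 11.1 and 0.854 CPM against 60.3, 41.5 and 33.2 CPM and missed the threshold (1.72 ± 0.39, adjusted p = 0.0570).

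Of 16 NK and cytotoxic cell genes 0 passed in either edgeR fit. At an unadjusted p under 0.05 with 12 libraries 6 were higher (9.54% of all genes were). DESeq2 called 2 without IgG replicate 3, both higher (1.53% of all genes were). The median was 1.26 with 12 libraries and 0.86 with 11. The NK receptor gene Ncr1 was at 2.28, 2.09 and 0.783 CPM with IgG and at 9.39, 4.27 and 4.23 CPM with the combination (adjusted p = 0.223 without IgG replicate 3). Prf1, perforin, was at 3.12, 2.84 and 0.285 CPM against 14.9, 4.64 and 4.89 CPM (adjusted p = 0.319). IgG replicate 3 was the lowest of the 6 tumours for both genes; the part of its tissue content in these values was not tested.

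The 14 genes higher in the combination without IgG replicate 3 included the following besides Gzmc. Casp1, the inflammasome protease that matures IL-1β and IL-18, was at 46.8, 38.8 and 6.52 CPM with IgG and at 125, 225 and 154 CPM with the combination, and rose by 1.97 ± 0.29 (adjusted p = 0.00848; with 12 libraries 2.45 ± 0.56, adjusted p = 0.112). Btc, the EGF receptor ligand betacellulin, was at 5.78, 2.25 and 2.95 CPM against 15.7, 34.2 and 14.0 CPM and rose by 2.40 ± 0.47 (adjusted p = 0.0308). Bambi, a decoy receptor of the TGF-β family, was at 22.8, 12.5 and 25.5 CPM against 47.8, 60.5 and 54.3 CPM and rose by 1.62 ± 0.26 (adjusted p = 0.00959). These genes had no overlap between groups. IgG replicate 3 was the lowest of the 6 tumours for Casp1, lay between the other IgG tumours for Btc and was the highest IgG tumour for Bambi.

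Tspan6, a tetraspanin, was at 22.1, 14.6 and 85.3 CPM with IgG and at 66.2, 58.0 and 55.3 CPM with the combination. IgG replicate 3 was the highest tumour, so the rise of 1.70 ± 0.27 (adjusted p = 0.00959) became 0.56 ± 0.52 with 12 libraries (adjusted p = 0.495). Slc12a1, a sodium, potassium and chloride cotransporter, rose by 2.04 ± 0.42 from low levels (1.75, 1.00 and 0 CPM with IgG and 4.58, 6.61 and 5.89 CPM with the combination). Serpinb6b, a serpin, was at 18.8, 14.7 and 9.43 CPM against 34.6, 43.9 and 32.0 CPM and rose by 1.14 ± 0.22 (adjusted p = 0.0309). The remaining genes named by the rule, Armcx2, Tmem18, Fancb, Grik2 and Mis18a, rose by 1.06 to 1.23. Fkbp7 and Serpinb9 complete the 14 (1.02 ± 0.21 and 0.83 ± 0.16) and fall outside the rule. With all 12 libraries none of the 14 passed; the smallest adjusted p, 0.0899, was shared by Btc, Bambi, Armcx2 and Tmem18. Aga, Pla1a and Tmem184c, among the 8 higher genes with the smallest p in that fit, were at adjusted p values of 0.0992 each and did not pass in either fit.

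**Figure D4:**
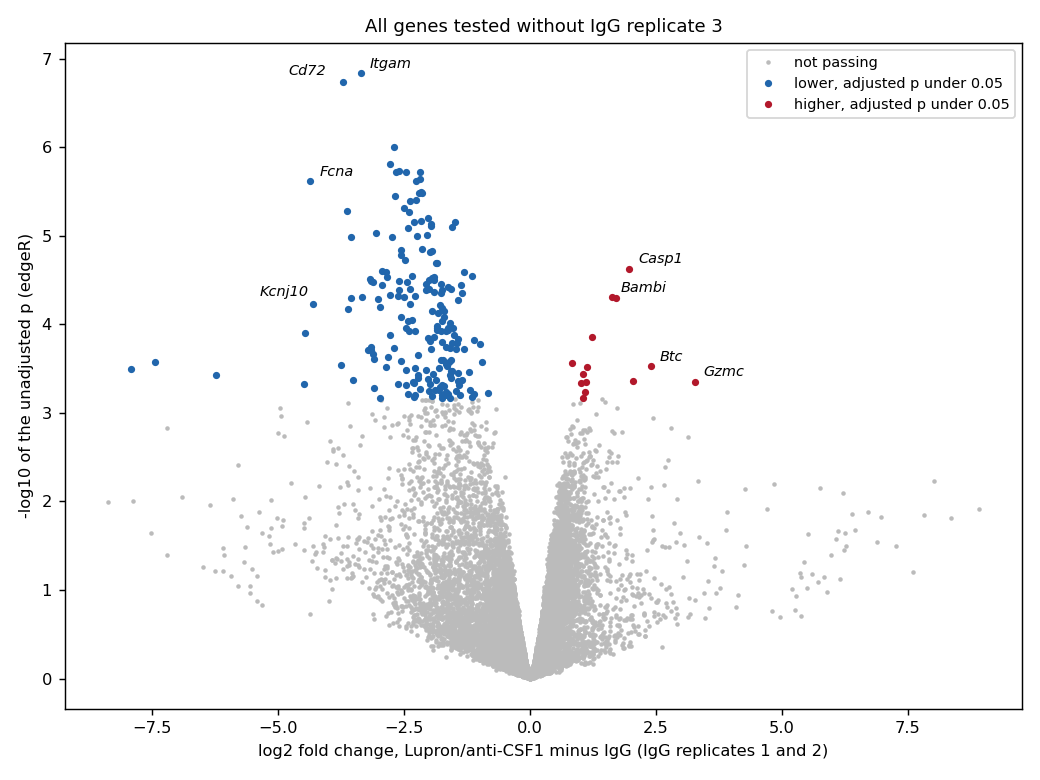
Each point is 1 of 15196 genes tested without IgG replicate 3, with the log2 fold change of Lupron/anti-CSF1 minus IgG on the horizontal axis and -log10 of the unadjusted edgeR p on the vertical axis; blue and red mark the 194 lower and 14 higher genes with an adjusted p under 0.05. The lower genes outnumber the higher ones, with Itgam and Cd72 at the smallest p.

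Among the genes with the largest falls, Cd209f, a lectin receptor, was at 1.26, 14.2 and 21.0 CPM with IgG, and the combination tumours held 2 counts in all (0.0782, 0 and 0 CPM), so no fold is given; its adjusted p was 0.0321 without IgG replicate 3. Kcnj10, a potassium channel, was at 5.67, 3.17 and 1.53 CPM against 0.0391, 0.320 and 0.310 CPM and fell by 4.30 ± 0.69 (adjusted p = 0.0108). Clec4a1, a myeloid lectin receptor, fell by 3.75 ± 0.73 (adjusted p = 0.0304) and P2ry13, an ADP receptor, by 3.55 ± 0.56 (adjusted p = 0.00959). These genes had no overlap between the groups. Fcrls, an Fc receptor-like gene of myeloid cells, was at 8.26, 18.5 and 5.91 CPM against 1.25, 0 and 0.482 CPM and fell by 4.48 ± 0.92 (adjusted p = 0.0402). Abhd15 fell by 3.52 ± 0.72 (adjusted p = 0.0385). Rhox5, a homeobox gene, was at 2.51, 103 and 0.0356 CPM against 0.548, 0.160 and 0.172 CPM, so its fall of 7.44 ± 1.35 (adjusted p = 0.0288) rests on IgG replicate 2. The interleukin 33 receptor gene Il1rl1 was likewise at 614 CPM in IgG replicate 2 alone, against 2.93 and 2.56 CPM in the other IgG tumours and 4.21 to 6.57 CPM in the combination, and did not pass (adjusted p = 0.124).

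Genes of normal prostate were lower in the combination chiefly against IgG replicates 2 and 3. Of 16 luminal genes 0 passed in either edgeR fit, although 16 of 16 values were negative in both; 13 were lower at an unadjusted p under 0.05 with 12 libraries, and DESeq2 called 1 without IgG replicate 3, lower. The median moved from -2.12 to -1.24 when IgG replicate 3 was left out. Hoxb13, a homeobox factor of the prostate, was at 18.1, 41.7 and 91.0 CPM with IgG and at 9.82, 13.7 and 12.4 CPM with the combination (-1.32 ± 0.42, adjusted p = 0.178). Spint1, a protease inhibitor of epithelia, was at 24.2, 31.3 and 181 CPM against 12.9, 6.56 and 11.7 CPM and came nearest to passing (-1.42 ± 0.31, adjusted p = 0.0538). The basal keratin gene Krt5 was at 3.80, 16.9 and 485 CPM against 15.1, 4.00 and 4.68 CPM, where IgG replicate 3 alone was high. The median of 11 basal genes moved from -2.41 to -0.64 without it, and that of 12 prostate secretion genes from -2.99 to -1.66. IgG replicate 3 had the highest luminal, basal and prostate secretion levels of the 12 libraries, so these shifts are no separate result.

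The androgen response list, which bears on Lupron, had 0 of 20 passing in either edgeR fit and medians of -0.18 and -0.15; with 12 libraries 1 was higher and 7 lower at an unadjusted p under 0.05 (9.54% and 16.5% of all genes), and DESeq2 called 2 without IgG replicate 3, both lower (3.55% of all genes). Tmprss2, an androgen-driven protease of luminal cells, was at 16.4, 69.7 and 239 CPM with IgG and at 11.5, 4.16 and 7.02 CPM with the combination (-2.51 ± 0.85, adjusted p = 0.219). Mme, neprilysin, was at 29.8, 88.3 and 776 CPM against 19.2, 7.09 and 8.06 CPM (-2.36 ± 1.12, adjusted p = 0.361). Maf was the member nearest to passing, at 59.2, 94.9 and 64.2 CPM against 37.6, 26.0 and 40.4 CPM (-1.15 ± 0.27, adjusted p = 0.0708). These genes had no overlap between groups, but Tmprss2 and Mme followed the luminal genes in being highest in IgG replicate 3, and the part of the tissue content in their difference was not tested. In the list of steroid receptors and steroid metabolism 0 of 12 passed in either edgeR fit, with 1 higher and 5 lower at an unadjusted p under 0.05 with 12 libraries, against the same shares of all genes, and 1 called by DESeq2 without IgG replicate 3, lower. The median was -1.21 with 12 libraries and -0.19 with 11. Pgr, the progesterone receptor, was at 3.01, 1.42 and 1.46 CPM with IgG and at 0.391, 0.320 and 0.241 CPM with the combination, apart but not passing (-2.79 ± 0.78, adjusted p = 0.128).

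Seminal vesicle genes varied widely between tumours of the same group. Their share of counts was 0.956%, 10.5% and 0.0536% in the IgG tumours and 10.1%, 5.08% and 0.0278% with anti-CSF1 alone. With Lupron alone it was 1.01%, 29.3% and 2.45%. In the combination tumours it was 0.390%, 4.73% and 7.62%. The secretory gene Svs4 was at 1070, 2230 and 29.9 CPM with IgG and at 908, 6850 and 7200 CPM with the combination, and 0 of 10 genes passed in either edgeR fit, at an unadjusted p under 0.05 with 12 libraries or by DESeq2 without IgG replicate 3.

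Stromal medians moved when IgG replicate 3 was left out. That tumour, which stood apart by its tissue genes, had the highest smooth muscle, fat and skeletal muscle levels of the 12 libraries. The shifts of these lists are therefore no separate result. Of 14 smooth muscle genes 13 were lower at an unadjusted p under 0.05 with 12 libraries (16.5% of all genes were). In either edgeR fit or by DESeq2 without IgG replicate 3, 0 passed, and the smooth muscle median went from -3.09 to -1.52. Myh11, smooth muscle myosin, was at 153, 1020 and 5980 CPM with IgG and at 251, 69.2 and 204 CPM with the combination. Fat genes went from -3.36 to -1.24 and skeletal muscle genes from -2.45 to -1.0. When IgG replicates 2 and 3 were both left out, the medians of these 3 lists turned positive (0.31 for smooth muscle, 1 for fat and 0.24 for skeletal muscle). Fibroblast and endothelial genes had medians of 0.44 and 0.15 with 12 libraries and of -0.02 and -0.04 without IgG replicate 3. With 12 libraries 0 of 17 fibroblast genes were higher and 3 lower at an unadjusted p under 0.05, and DESeq2 called 2, both lower. These lower counts are near the shares of all genes (16.5% lower at that p and 10.3% by DESeq2). Without IgG replicate 3 DESeq2 called 1 fibroblast gene, higher. Fap, a protease of activated fibroblasts, had the highest fold change of the fibroblast list in either fit. It was at 68.8, 42.8 and 1.21 CPM with IgG and at 135, 160 and 125 CPM with the combination (1.32 ± 0.30, adjusted p = 0.0607).

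Proliferation genes showed no difference that passed: 0 of 24 in either edgeR fit, at an unadjusted p under 0.05 with 12 libraries or by DESeq2 without IgG replicate 3, with a median of 0.64 with 12 libraries and 0.08 without IgG replicate 3. The cyclin gene Ccnb2 was at 55.6, 33.2 and 2.53 CPM with IgG and at 67.7, 82.6 and 67.4 CPM with the combination (0.71 ± 0.23, adjusted p = 0.188). Interferon-stimulated genes had a median of 0.57 with 12 libraries and 0.22 with 11, and hypoxia and glycolysis genes one of 0.61 and 0.25. The hypoxia median turned negative (at lowest -0.26) without combination replicate 2 or without IgG replicates 2 and 3. In either edgeR fit 0 of 21 and 0 of 19 passed. At an unadjusted p under 0.05 with 12 libraries there were 0 and 3, all 3 lower, where 16.5% of all genes were lower. Without IgG replicate 3 DESeq2 called 1 interferon gene, higher, and 1 hypoxia gene, lower. Of 19 cytokine and alarmin genes 0 passed in either edgeR fit, and the median was 0.23 with 12 libraries and -0.1 with 11. At an unadjusted p under 0.05 with 12 libraries 4 were higher and 1 lower (9.54% and 16.5% of all genes were). DESeq2 called 3 higher and 0 lower with 12 libraries. It called 2 higher and 1 lower without IgG replicate 3 (1.53% and 3.55% of all genes were). Without IgG replicate 3, 9 values were positive and 10 negative. Among them Il33, an alarmin of stromal and epithelial cells, was at 129, 60.1 and 71.9 CPM with IgG and at 209, 434 and 234 CPM with the combination, apart but not passing (1.63 ± 0.45, adjusted p = 0.120). Of 11 nerve and neuroendocrine genes 0 passed in either edgeR fit, with 6 values positive and 5 negative in each. Their median was 0.36 with 12 libraries and 0.43 with 11. At an unadjusted p under 0.05 with 12 libraries 2 were higher (9.54% of all genes were). DESeq2 called 2 with 12 libraries (3.54% of all genes were higher) and 2 without IgG replicate 3 (1.53%), all higher. The neuropeptide gene Npy of that list was at 2.51, 1.04 and 0.534 CPM against 15.2, 17.3 and 14.4 CPM (3.13 ± 0.78, adjusted p = 0.0838).

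**Figure D5:**
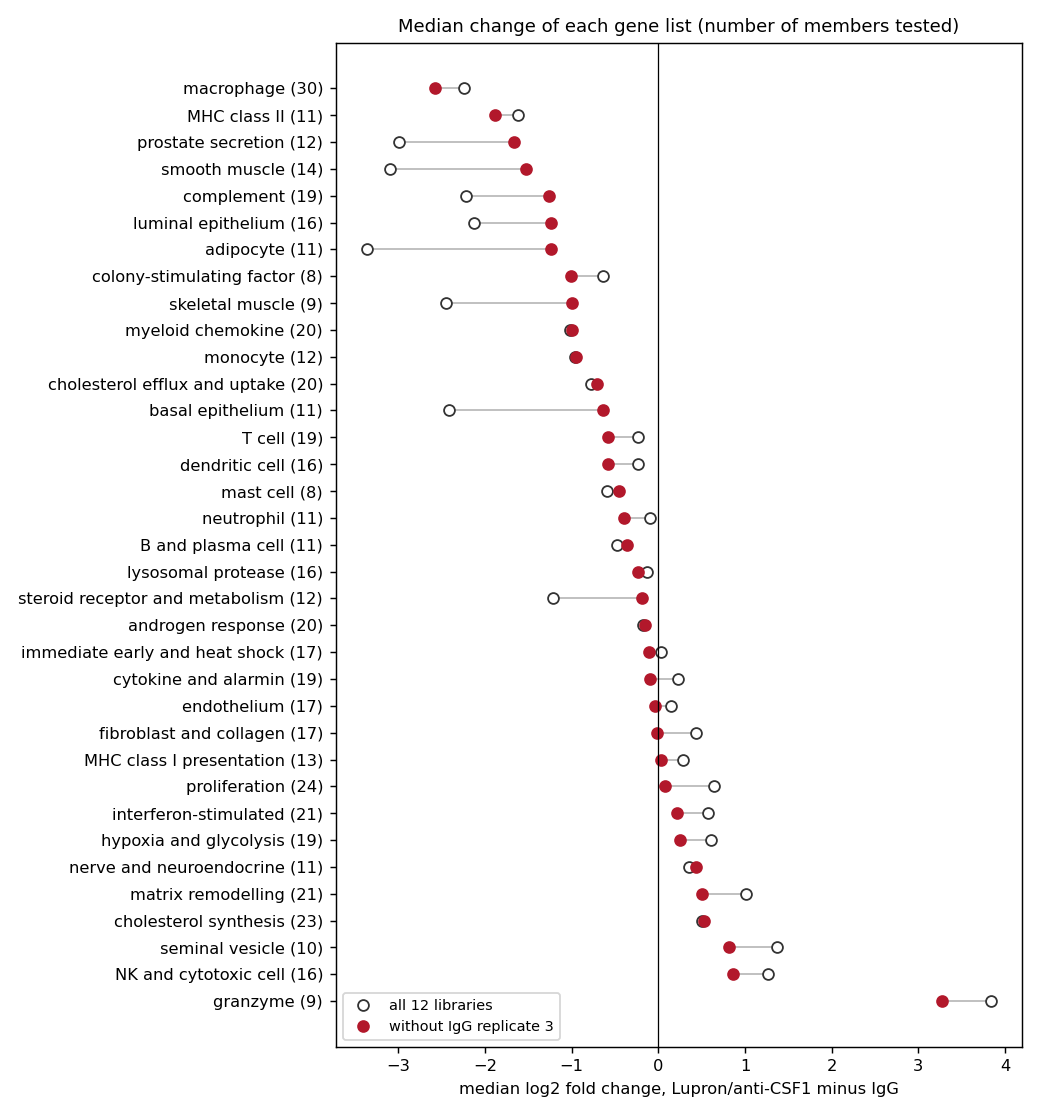
Median log2 fold change, Lupron/anti-CSF1 minus IgG, of each gene list with at least 8 members tested, with 12 libraries (open) and without IgG replicate 3 (filled); the number of members tested is in brackets. The macrophage median is -2.24 and -2.57, and the smooth muscle median -3.09 and -1.52. IgG replicate 3 had the highest smooth muscle level of the 12 libraries, so the shift of that list is no separate result.

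The design also allows the combination to be set beside each single treatment; these comparisons share the combination tumours, and those with IgG share the IgG tumours. Against anti-CSF1 alone 0 of 15082 genes passed (0%), while DESeq2 called 6 (0.0398%) and 294 had an unadjusted p below 0.05 (1.95%). Without IgG replicate 3 the count that passed was again 0, with 573 at an unadjusted p below 0.05 (3.77%) and 25 by DESeq2 (0.165%). A p that misses the threshold does not show that the groups were alike. Against Lupron alone 0 genes passed with 12 libraries (642 at an unadjusted p under 0.05, 4.26%, and 236 by DESeq2, 1.56%). Without IgG replicate 3, 210 passed (1.38%), 2 higher (0.0132%) and 208 lower (1.37%), and DESeq2 called 395 (2.6%). Leaving out IgG replicate 3 changed this count although no IgG tumour is in either group compared; the cause was not tested. All libraries enter the estimate of spread. The common biological coefficient of variation was 0.471 with 12 libraries and 0.376 with 11.

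For macrophage genes the median log2 fold change of the combination, without IgG replicate 3, was -2.57 against IgG, -2.12 against Lupron alone and -0.17 against anti-CSF1 alone. For MHC class II the same medians were -1.88, -2.67 and -0.04. Csf1r in the combination tumours was lower than with Lupron alone by a log2 difference of -2.46 ± 0.34 (adjusted p = 0.00436). Against anti-CSF1 alone the difference was -0.11 ± 0.33. Its values were 27.1, 10.9 and 25.3 CPM with anti-CSF1 alone and 139, 80.5 and 106 CPM with Lupron alone. The tumours with the antibody, alone or in combination, were therefore low for this gene and those without it high.

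Itgam was at 25.3, 21.3 and 21.0 CPM with Lupron alone, above the 6 tumours given the antibody (4.99 to 9.01 CPM). These values were below IgG replicates 1 and 2 (46.2 and 87.3 CPM) but close to IgG replicate 3 (25.5 CPM). Lupron alone against IgG did not pass for Itgam (-1.57 ± 0.28, adjusted p = 0.8, and with 12 libraries -1.23 ± 0.38, adjusted p = 0.284). Itgam in the combination tumours differed from Lupron alone by -1.79 ± 0.27 (adjusted p = 0.00618). The 2 genes higher than with Lupron alone were Gzmc (3.33 ± 0.56, adjusted p = 0.0130) and Gzmb (1.71 ± 0.33, adjusted p = 0.0277). Gzmc was at 72.3, 197 and 189 CPM with anti-CSF1 alone and between 15.3 and 23.7 CPM with Lupron alone, within the range of the IgG tumours. Casp1 was at 70.0, 110 and 77.6 CPM with anti-CSF1 alone and at 98.2, 93.0 and 111 CPM with Lupron alone, above every IgG tumour and below every combination tumour. For Casp1 the difference from either single treatment did not pass (0.97 ± 0.24 against anti-CSF1, adjusted p = 1; 0.74 ± 0.24 against Lupron, adjusted p = 0.341). Bambi showed the same order, with 30.0 to 38.5 CPM in the 6 tumours with a single treatment and 47.8 to 60.5 CPM in the combination (0.64 ± 0.22 against anti-CSF1, adjusted p = 1; 0.59 ± 0.22 against Lupron, adjusted p = 0.494).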

How the data were processed

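Bulk RNA-seq of 12 tumours was used. The submitters' processing notes name bcl2fastq 2.20.0.422, cutadapt 1.8.1, HTSeq 0.6.1 and build mm10. No source used here names the aligner, annotation or strand setting, so genes that overlap on opposite strands, and near-identical copies, are uncertain. The deposited values are raw counts for 23479 symbols, with no normalization by the authors.

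The counts were fitted in R 4.3.3 with edgeR 4.0.16 (edgeR's low-count filter, TMM scaling, robust quasi-likelihood fit, 4 group means over 12 libraries). A gene passed where its p, adjusted by Benjamini and Hochberg's method over all genes tested, was below 0.05. The fit was repeated without IgG replicate 3. Both fits were tested on simulated data, drawn around the same mean for every tumour of a group. No outlying tumour such as IgG replicate 3 was simulated, so this test does not bear on its influence. Alternatives were DESeq2 1.42.0 and its scaling factors, upper-quartile factors, other low-count filters, the compared groups only, a replicate block, and each library left out. Levels are CPM on TMM-scaled totals. Where 3 tumours meet 3, an exact permutation test cannot go below a p of 0.1.

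The members of 36 lists (581 entries, 8 matched by an older symbol, 3 without a match) and all rules were chosen with earlier results of these data known. Genes named were Csf1, Csf1r and Erg, the 12 genes passing with the highest and the 12 with the lowest fold change in either fit (mean of at least 1 CPM, groups not overlapping), up to 5 members of each described list with the smallest p, and, where fewer than 5 passed in a direction, the 8 with the smallest p. Gene models without a proper symbol and segments of antigen receptors were not named. The values of some genes that the rule names are not reported here.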

Additional observations from a re-analysis of the deposited data

How the results depend on the processing

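For Lupron/anti-CSF1 versus IgG, where 1 gene passed, 3 passed with DESeq2's scaling factors, 4 with upper-quartile factors, 3 without a low-count filter, 3 with the stricter one (1 CPM in 3 libraries), 2094 by DESeq2's own test, 0 with only the compared groups, 0 with the replicate block and 26 without IgG replicates 2 and 3 together; leaving out 1 library gave 0 to 2213. Without IgG replicate 3 (settings chosen after seeing the data), where 208 passed, DESeq2 called 773, only the compared groups gave 30, the replicate block 564 (284 higher, 280 lower), and leaving out 1 more library gave 26 to 616. For Lupron/anti-CSF1 versus anti-CSF1, DESeq2 called 6 with 12 libraries and 25 without IgG replicate 3, against 0 in every edgeR setting. For Lupron/anti-CSF1 versus Lupron, 0 passed with 12 libraries, 5 with DESeq2's factors, 7 with upper-quartile factors, 2 without a filter, 5 with the stricter filter, 236 by DESeq2, 204 with only the compared groups, 214 without IgG replicates 2 and 3 together and 0 to 210 when 1 library was left out; without IgG replicate 3, 210 passed, DESeq2 called 395 and leaving out 1 more gave 90 to 219. The cause of these shifts was not tested.

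Correlations gave no clear sign that the shared replicate numbers pair the tumours. Of 18 pairs with the same number, 7 correlated above 0.1 (range -0.32 to 0.335), and 1 of 3 IgG tumours correlated best with its own number. With 3 tumours per group this cannot decide whether the numbers mark a shared batch. The block is given here only, although without IgG replicate 3 the excess of lower genes was absent with it (284 higher, 280 lower). Of the 199 named genes, 30 changed sign in at least 1 setting, without passing in the other direction in any (Csf1 went from -0.30 to 0.13 without IgG replicate 2). A count of 0 in a group of 3 allows up to 0.0383 CPM with IgG and 0.0409 CPM with the combination, for counting error only.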
